A study of Homo sapiens with 6 samples.

Results

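Keratins are the intermediate filament proteins of epithelial cells. A type I keratin, which is acidic, pairs with a type II keratin, which is neutral to basic, and filaments form only from such pairs. The pairs mark kinds of epithelium: KRT8 with KRT18 or KRT19 in simple epithelia, KRT5 with KRT14 or KRT15 in the basal layer of stratified epithelia, KRT4 with KRT13 in the upper layers of moist stratified epithelia, KRT3 with KRT12 in the corneal epithelium, and KRT6, KRT16 and KRT17 in epidermis under stress. The members described here are all genes whose symbol is KRT followed by a number and at most 1 letter from A to C, with pseudogenes left out. The rule took 55 of the 50868 genes in the table, 29 of type I and 26 of type II. It used names and no measured value.

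RNA came from B4G12, a clonal, immortalised line labelled as human corneal endothelial cells, the layer at the back of the cornea. The labels give the line as wild type. A group of 3 libraries, siControl, had a control siRNA, and another group of 3, siNAMPT, had an siRNA against NAMPT, the rate-limiting enzyme of NAD salvage from nicotinamide. All 6 libraries are of mRNA from siRNA-treated cells of this 1 line, and no source at hand gives the time after siRNA. The comparison asks how depletion of NAMPT altered the transcripts of these cells.

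Total counts lay between 19510796 and 22364717 per library. The siRNA target itself had 3480, 3603 and 3996 counts in siControl and 594, 572 and 673 in siNAMPT, a log2 fold change of -2.60 (SE 0.07, adjusted p = 2.60e-06, quasi-likelihood test in edgeR, Benjamini-Hochberg adjusted over 15213 tested genes). That test and adjustment stand behind every adjusted p below, with 0.05 as the threshold for a call and all fold changes given as siNAMPT against siControl. Separate cultures are not stated in the labels, so the p-values reflect how far these libraries of a group lie apart, and that may be technical spread. In bulk RNA, fewer cells that express a gene and less of its RNA per cell cannot be told apart.

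The labelled cell type was set against marker genes. Of 18 corneal endothelium markers, 8 had a mean of at least 1 FPKM in siControl, FPKM being the count scaled by gene length and by the total of the library. SLC4A11, a membrane transporter of that layer, stood at 5.32 FPKM. The collagen genes of its basement membrane, COL8A1 and COL8A2, stood at 0.0714 and 0.0151 FPKM, AQP1 at 0.0946 FPKM, and CD200 was at 0 in every library. Of 14 corneal epithelium markers, 9 reached 1 FPKM in siControl. EPCAM, an epithelial adhesion protein, stood at 32.3 FPKM and CDH1, the epithelial cadherin, at 17.9 FPKM, while KRT12 was at 0 in every library and PAX6 at 0.00243 FPKM. No marker of keratocytes and fibroblasts (10 genes) or of vascular endothelium (8 genes) reached 1 FPKM in siControl. Vimentin (VIM), the filament protein of mesenchymal and corneal endothelial cells, was at 0.285 FPKM. The mRNA of these libraries therefore held many epithelial transcripts beside part of the endothelial set, which goes against the label in part.

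The 14 keratins with at least 1 FPKM in either group are those of simple, basal, stressed and upper stratified epithelia, and KRT80. Of the 55 members, 32 had at least 1 count in some library and 18 had enough counts to be tested. The keratin genes together took 1.03%, 0.957% and 0.94% of all counts in the siControl libraries. The same share lay between 1.0% and 1.11% in siNAMPT. These shares overlapped between groups.

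By deposited FPKM, 5 genes made up most of the keratin sum in siControl. KRT14 led with 544 ± 33.3 FPKM (SD, n = 3), which is 30.3% of the sum over all members. KRT19 followed with 338 ± 20.9 FPKM, KRT7 with 306 ± 9.57 FPKM, KRT5 with 236 ± 11.9 FPKM and KRT6A with 114 ± 2.85 FPKM (SD, n = 3 each). After them came KRT8, KRT18, KRT13, KRT80, KRT17, KRT15, KRT10, KRT4 and KRT9, from 65.4 down to 2.51 FPKM. Only KRT18 and KRT13 overlapped among neighbours in this order. In siNAMPT, KRT14 and KRT19 overlapped at the top, and KRT15 stood at place 6 where it had been at place 11.

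**Figure D1:**
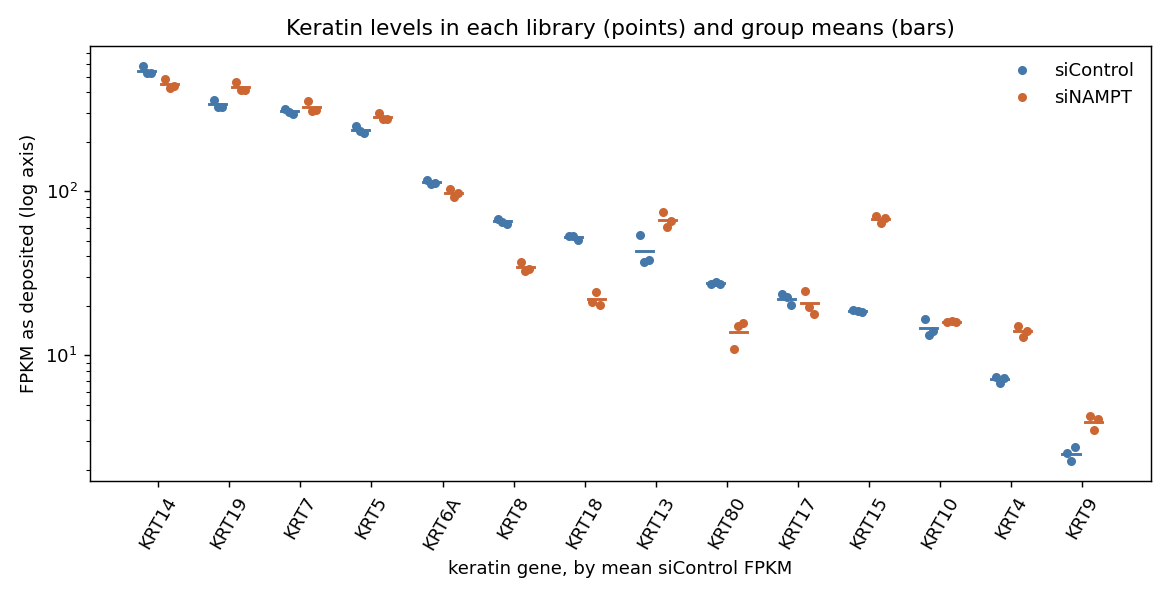
FPKM (log axis) of the 14 keratins with at least 1 FPKM, each point 1 library, siControl and siNAMPT side by side, with bars at the group means. KRT15 and KRT4 sit higher in all 3 siNAMPT libraries and KRT8, KRT18 and KRT80 lower, while KRT7, KRT10 and KRT17 overlap.

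The order of levels depends on the gene length behind FPKM. The length implied by the deposited FPKM equals the summed length of all distinct exons in GENCODE release 29, overlapping exons counted repeatedly, within 1% for 89.7% of 26213 genes with a count. For KRT15 this length is 14177 bases, longer than its whole locus at 17:41513743-41522529 (GRCh38, minus strand), while its coding sequence has 1368 bases. For KRT8 it is 14233 bases against 1449 coding bases, and for KRT14 it is 2916 against 1416. FPKM thus places KRT15 and KRT8 low beside KRT14. Fold changes between groups do not use the length.

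Levels were therefore also given as counts scaled to the library total (CPM) per kilobase of coding sequence, a scale chosen after the lengths were seen. On this scale KRT7 led the siControl libraries with 1499 ± 57.7, or 21.9% of the sum, followed by KRT19 with 1216 ± 82.1, KRT14 with 1129 ± 75.7, KRT5 with 1089 ± 62.1 and KRT8 with 647 ± 25.9 CPM per kb (SD, n = 3 each). KRT19 and KRT14 overlapped, as did KRT14 and KRT5. KRT15 had 194 ± 3.74 CPM per kb in siControl and 699 ± 38.5 in siNAMPT, and its share of the keratin sum went from 2.84% to 9.67%. On this scale KRT15 moved from place 8 to place 5. Its main transcript has 5237 bases, and per kilobase of that length its mean was 50.7 CPM in siControl and 183 CPM in siNAMPT.

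**Figure D2:**
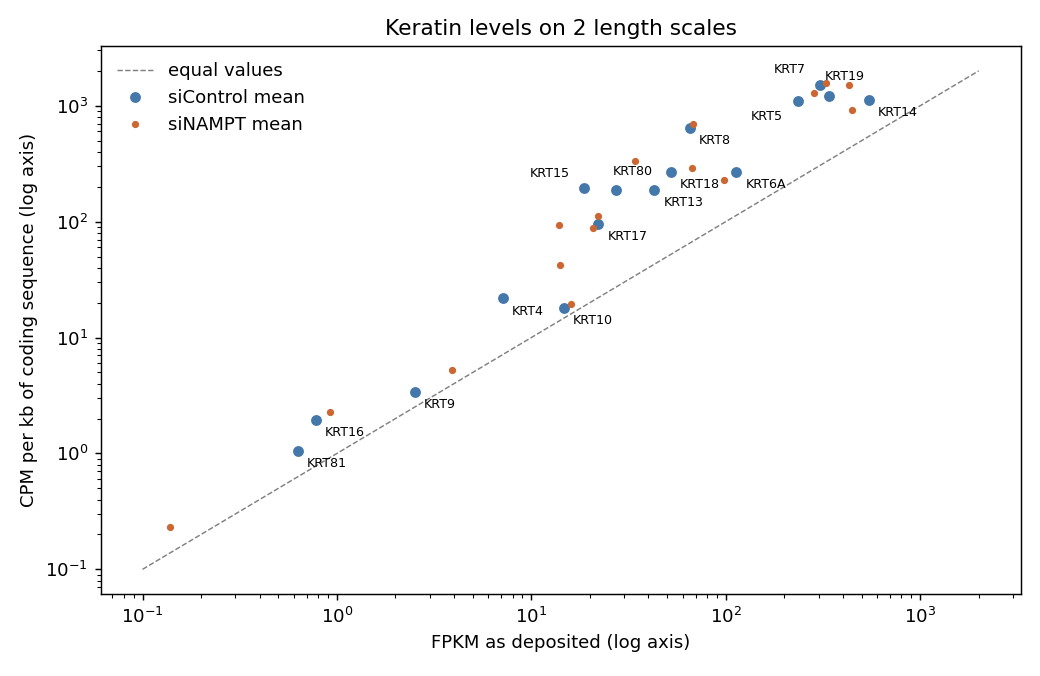
Mean level of each keratin in CPM per kilobase of coding sequence against its mean deposited FPKM, both on log axes, with siControl means as large and siNAMPT means as small points and a dashed line at equal values. KRT15 and KRT8 lie farther above the line than KRT14, whose FPKM length is closer to its coding length.

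In the comparison of groups, 6 of the 18 tested keratins rose in siNAMPT (KRT4, KRT5, KRT9, KRT13, KRT15 and KRT19), 6 fell (KRT6A, KRT8, KRT14, KRT18, KRT80 and KRT81) and 6 were not called (KRT3, KRT7, KRT10, KRT16, KRT17 and KRT86). Called keratins were 66.7% of those tested, where 42.7% of all tested genes were called, 20.8% higher and 21.9% lower. The 2 groups did not overlap in CPM for 14 of the 18, where the share over all tested genes was 54.9%. Changes of at least 2-fold among the called were those of KRT15, KRT18, KRT80 and KRT81, 4 of 18 where the share over all genes was 8.28%. KRT81 had enough counts to be tested only through siControl. The median log2 fold change over the 18 was 0.09, beside 0 for all tested genes. It was 0.22 over the 9 tested type I members, of which 4 rose and 2 fell, and -0.23 over the 9 tested type II members, of which 2 rose and 4 fell.

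**Figure D3:**
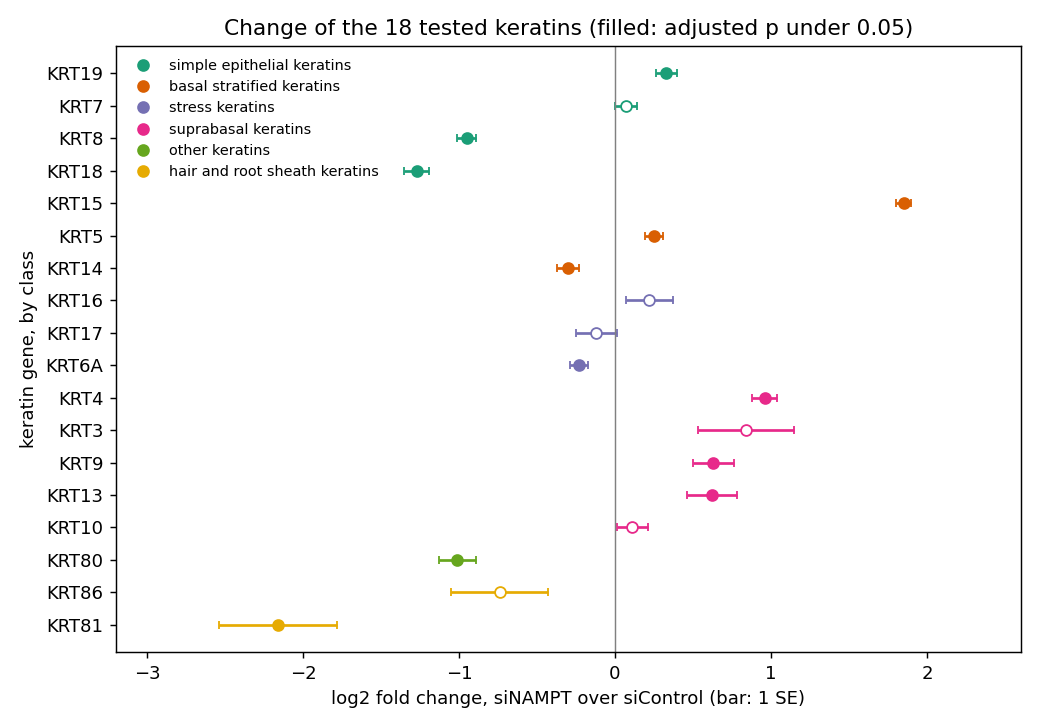
Log2 fold change of the 18 tested keratins, siNAMPT against siControl, with bars of 1 SE, coloured by class and filled where the gene was called. The values run from -2.16 for KRT81, tested only through its siControl counts, to 1.85 for KRT15. The 6 genes not called lie between -0.74 and 0.84.

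Basal keratins split within their class. KRT15, the type I keratin of resting basal cells and of the hair follicle bulge (ENSG00000171346), had the largest rise among the tested keratins. Its FPKM was 18.8, 18.6 and 18.4 in siControl and 70.7, 64.4 and 68.7 in siNAMPT. Every siNAMPT library stood more than 3-fold above every siControl library, and the siControl libraries were nearly equal. The log2 fold change was 1.85 (SE 0.05, adjusted p = 2.60e-06), a 3.60-fold rise from 18.6 ± 0.207 to 67.9 ± 3.25 FPKM (SD, n = 3 each).

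KRT14, the other type I partner of KRT5 in basal cells (ENSG00000186847, 17:41582279-41586921), had 583, 528 and 522 FPKM in siControl and 480.2, 426 and 439.5 FPKM in siNAMPT. Its siNAMPT libraries all lay below the siControl ones. KRT14 fell by 0.30 on the log2 scale (SE 0.07, adjusted p = 0.0115). KRT5, the type II basal keratin (ENSG00000186081, 12:52514575-52520687), had 249.2, 232 and 226 FPKM in siControl and 299, 276 and 277 FPKM in siNAMPT. Here the siNAMPT libraries lay above, and KRT5 rose by 0.25 (SE 0.06, adjusted p = 0.0121). Both shifts are small beside that of KRT15.

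The balance within the basal pair moved accordingly. The ratio of KRT5 to KRT14 in FPKM was 0.428, 0.439 and 0.434 in siControl and 0.622, 0.649 and 0.631 in siNAMPT. The ratio of KRT5 to KRT15 was 13.3, 12.4 and 12.3 against 4.22, 4.29 and 4.04. Neither ratio overlapped between groups. The sum of the 3 basal keratins was 799 ± 45.4 FPKM in siControl and 800.3 ± 43.7 FPKM in siNAMPT (SD, n = 3 each). Per kilobase of coding sequence, where KRT15 weighs more, that sum was 2411 ± 141 against 2909.9 ± 174 CPM per kb, with no overlap. Whether the groups separate in this sum thus depends on the gene lengths used.

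Simple epithelial keratins moved in different directions. KRT18, the type I keratin of simple epithelia (ENSG00000111057, 12:52948871-52952901), had 53.3, 53.1 and 50.4 FPKM in siControl and 21.2, 24.3 and 20.3 FPKM in siNAMPT. Its type II partner KRT8 (ENSG00000170421, 12:52897187-52949954) had 67.7, 65.0 and 63.4 FPKM in siControl and 36.8, 32.6 and 33.7 FPKM in siNAMPT. Both genes had lower values in all 3 siNAMPT libraries, with wide gaps between the groups. KRT18 fell by 1.27 on the log2 scale (SE 0.08, adjusted p = 3.28e-05), which is 2.42-fold, and KRT8 fell by 0.95 (SE 0.06, adjusted p = 5.12e-05), which is 1.93-fold.

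KRT19, a small type I keratin that can take the place of KRT18 as partner of KRT8 (ENSG00000171345, 17:41523617-41528308), went the other way. It had 362, 328 and 324 FPKM in siControl and 464, 414 and 412 FPKM in siNAMPT, without overlap. KRT19 rose by 0.33 (SE 0.07, adjusted p = 0.0093). KRT7, a type II keratin of glandular and ductal epithelia (ENSG00000135480, 12:52232520-52252186), had 317, 305 and 298 FPKM in siControl and 355, 310.3 and 313 FPKM in siNAMPT. The KRT7 values overlapped, and its log2 fold change was 0.07 (SE 0.07, adjusted p = 0.4290).

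The 2 members of the KRT8 and KRT18 pair did not fall to the same extent in each library. The FPKM ratio of KRT8 to KRT18 was 1.27, 1.22 and 1.26 in siControl and 1.74, 1.34 and 1.66 in siNAMPT. The ratio of KRT8 to KRT19 had a mean of 0.193 ± 0.00592 in siControl and 0.0799 ± 0.00165 in siNAMPT (SD, n = 3 each). KRT8 thus stood lower beside KRT19 and higher beside KRT18 in siNAMPT. KRT8 and KRT18 are neighbours on opposite strands whose annotated ends overlap, with 375 exon bases of the main KRT18 transcript also in KRT8 exons. The use of strand in counting is not stated in the sources at hand, so reads from that overlap cannot be assigned to 1 of the 2.

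KRT20, the remaining keratin of this class, had a single count over all 6 libraries. The sum of the class was 762 ± 33.4 FPKM in siControl and 812 ± 56.6 FPKM in siNAMPT (SD, n = 3 each), and the groups overlapped. KRT7 and KRT19 hold most of that sum.

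Suprabasal keratins had 5 tested members of 11, and 3 of them rose. KRT4, the type II keratin of the upper layers of moist stratified epithelia (ENSG00000170477, 12:52806549-52814551), had 7.32, 6.76 and 7.26 FPKM in siControl and 15.1, 12.9 and 14.1 FPKM in siNAMPT. Its values were close to 2-fold apart without overlap, a rise of 0.96 on the log2 scale (SE 0.08, adjusted p = 1.41e-04).

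KRT13, its type I partner (ENSG00000171401, 17:41500981-41505705), had 53.9, 36.8 and 38.3 FPKM in siControl and 75.0, 60.8 and 65.5 FPKM in siNAMPT. The first siControl library stood well above the other two, and the groups still did not overlap. The rise was 0.62 (SE 0.16, adjusted p = 0.0156). The call was lost without the second siControl library (adjusted p = 0.0509), without the third (0.0511) or without the first siNAMPT library (0.0515), with log2 fold changes of 0.52, 0.54 and 0.53.

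KRT9, a type I keratin of the palm and sole epidermis (ENSG00000171403, 17:41565841-41572058), had 2.53, 2.26 and 2.74 FPKM in siControl and 4.25, 3.49 and 4.06 FPKM in siNAMPT. Its groups did not overlap, and the rise was 0.63 (SE 0.13, adjusted p = 0.0065). KRT10, the type I keratin of the epidermal spinous layer (ENSG00000186395, 17:40818117-40822595), had 16.7, 13.3 and 14.1 FPKM against values from 15.9 to 16.2 FPKM. The KRT10 libraries overlapped, and the log2 fold change was 0.11 (SE 0.10, adjusted p = 0.4069). TMEM99 overlaps 56 exon bases of KRT10 on the opposite strand, and the mean count of TMEM99 as a whole gene was 439.5 per library.

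KRT3, the type II keratin of corneal epithelium (ENSG00000186442), was at a mean of 0.313 FPKM in siControl and 0.571 FPKM in siNAMPT. Its log2 fold change of 0.84 (SE 0.31) had an adjusted p of 0.0631, and the value was 1.11 with an adjusted p of 0.0441 without the first siControl library. KRT12, its corneal partner, had no count. KRT1, the type II partner of KRT10, was not tested, with 0 counts in the 3 siControl libraries and 6, 6 and 4 counts in siNAMPT. With no filter on low counts it entered the fit only through its siNAMPT counts. Its adjusted p there, 0.0132, is therefore no support for a rise. The sum of the suprabasal class was 67.6 ± 11.6 FPKM in siControl and 102 ± 8.46 FPKM in siNAMPT (SD, n = 3 each), 1.51-fold, without overlap. KRT13 makes up most of this sum.

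Stress keratins showed 1 fall among 3 tested members, a called share of 33.3% beside 42.7% of all tested genes. KRT6A, a type II keratin induced in wounded epidermis (ENSG00000205420, 12:52487174-52493257), had 117, 111 and 113 FPKM in siControl and 104, 92.5 and 97.8 FPKM in siNAMPT. Its groups did not overlap, and it fell by 0.23 on the log2 scale (SE 0.06, adjusted p = 0.0170). The call was lost without the first siControl library (adjusted p = 0.0560) or the third siNAMPT library (0.0539).

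KRT17, a type I keratin of the same setting (ENSG00000128422, 17:41619437-41624842), had 23.5, 22.7 and 20.2 FPKM against 24.6, 19.8 and 17.7 FPKM. The siNAMPT range held the whole siControl range, and the log2 fold change was -0.12 (SE 0.13, adjusted p = 0.4996). KRT16, the usual type I partner of KRT6 (ENSG00000186832), was far lower, with means of 0.781 and 0.918 FPKM and a log2 fold change of 0.22 (SE 0.15, adjusted p = 0.2882). The ratio of KRT6A to KRT16 in FPKM was 146 ± 15.6 in siControl and 107 ± 9.1 in siNAMPT (SD, n = 3 each), without overlap. The ratio of KRT6A to KRT17 in FPKM was 5.15 ± 0.363 in siControl and 4.81 ± 0.666 in siNAMPT (SD, n = 3 each), with overlap.

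The KRT6 genes are near copies, which bears on how their reads were assigned. The coding sequences of KRT6A and KRT6C share 97.9% of bases and those of KRT6A and KRT6B 97.5%, and 51 of 1692 coding positions differ among the 3 genes. The densest stretch of such positions, coding bases 656 to 745 of the GENCODE main transcripts, is shown to make the likeness visible, with the 10 differing positions in capitals.
KRT6A: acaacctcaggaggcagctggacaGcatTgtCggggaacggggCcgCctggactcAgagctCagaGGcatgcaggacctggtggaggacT
KRT6B: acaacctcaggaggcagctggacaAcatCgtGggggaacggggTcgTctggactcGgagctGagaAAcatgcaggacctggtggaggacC
KRT6C: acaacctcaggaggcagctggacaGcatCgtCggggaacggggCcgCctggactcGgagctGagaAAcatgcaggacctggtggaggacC
Elsewhere the coding sequences hold a run of 269 bases that is identical in all 3. Of the 150-base windows of the KRT6A transcript, 9.25% occur unchanged in another keratin gene, against 16.5% for KRT6C.

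KRT6B had no count in any library. KRT6C had 5, 6 and 8 counts in siControl and 54, 0 and 44 counts in siNAMPT, so that 1 siNAMPT library was empty and the others stood above every siControl library. It did not pass the filter on low counts. With no filter its adjusted p was 0.1130. Since no source at hand states how reads with several matches were treated, the split of counts among KRT6A, KRT6B and KRT6C is uncertain.

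The remaining tested members were KRT80, KRT81 and KRT86. KRT80, a type II keratin found in most epithelia (ENSG00000167767, 12:52168996-52192000), had 27.2, 27.8 and 27.3 FPKM in siControl and 10.9, 15.1 and 15.6 FPKM in siNAMPT. The siControl libraries were nearly equal, all siNAMPT libraries were far below them, and the first siNAMPT library was lowest. KRT80 fell by 1.01 on the log2 scale (SE 0.12, adjusted p = 6.19e-04), which is 2.01-fold.

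Hair keratins had few counts. KRT81, a type II keratin of the hair cortex (ENSG00000205426, 12:52285913-52291534), had 41, 35 and 27 counts in siControl and 13, 4 and 6 in siNAMPT. These low counts did not overlap, and KRT81 fell by 2.16 (SE 0.38, adjusted p = 0.0035). KRT81 passed the filter on low counts only through its siControl libraries, and such a choice favours a fall. KRT86, another hair type II keratin (ENSG00000170442, 12:52249300-52309163), had 15, 18 and 27 counts against 10, 11 and 15, with a log2 fold change of -0.74 (SE 0.31, adjusted p = 0.0938). KRT81 lies inside the KRT86 locus on the other strand, their coding sequences share 90.1% of bases, and 25.6% of the 150-base windows of KRT81 occur unchanged in KRT86. Their counts are therefore uncertain as a split between them.

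The other 37 members were not tested. KRT1 and KRT6C are given above. KRT74 had 3, 0 and 3 counts in siControl and 9, 3 and 12 in siNAMPT. KRT32, KRT33A, KRT77 and KRT78 had between 0 and 7 counts in a library, KRT33B, KRT36 and KRT83 at most 2, and KRT20, KRT23, KRT39 and KRT73 a single count in all. The last 23 had no count in any library: KRT2, KRT6B, KRT12, KRT24 to KRT28, KRT31, KRT34, KRT35, KRT37, KRT38, KRT40, KRT71, KRT72, KRT75, KRT76, KRT79, KRT82, KRT84, KRT85 and KRT222. Most of these belong to hair and its root sheath, a class in which 10 of 26 members had a count and 2 were tested.

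Summed over all members, the keratin level was 1794 ± 93.6 FPKM in siControl and 1849 ± 114 FPKM in siNAMPT (SD, n = 3 each), 1.03-fold and with overlap. Type I members summed to 1037 ± 67.8 FPKM against 1077 ± 70.0 FPKM, and type II members to 757 ± 26.1 against 772 ± 44.0 FPKM. Neither sum separated the groups. Per kilobase of coding sequence, the type I sum was 3115 ± 218 against 3658 ± 270.3 CPM per kb, 1.17-fold without overlap, and the type II sum was 3715 ± 154 against 3569.9 ± 238 CPM per kb with overlap. The rises and falls of single members left the summed FPKM within its spread.

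**Figure D4:**
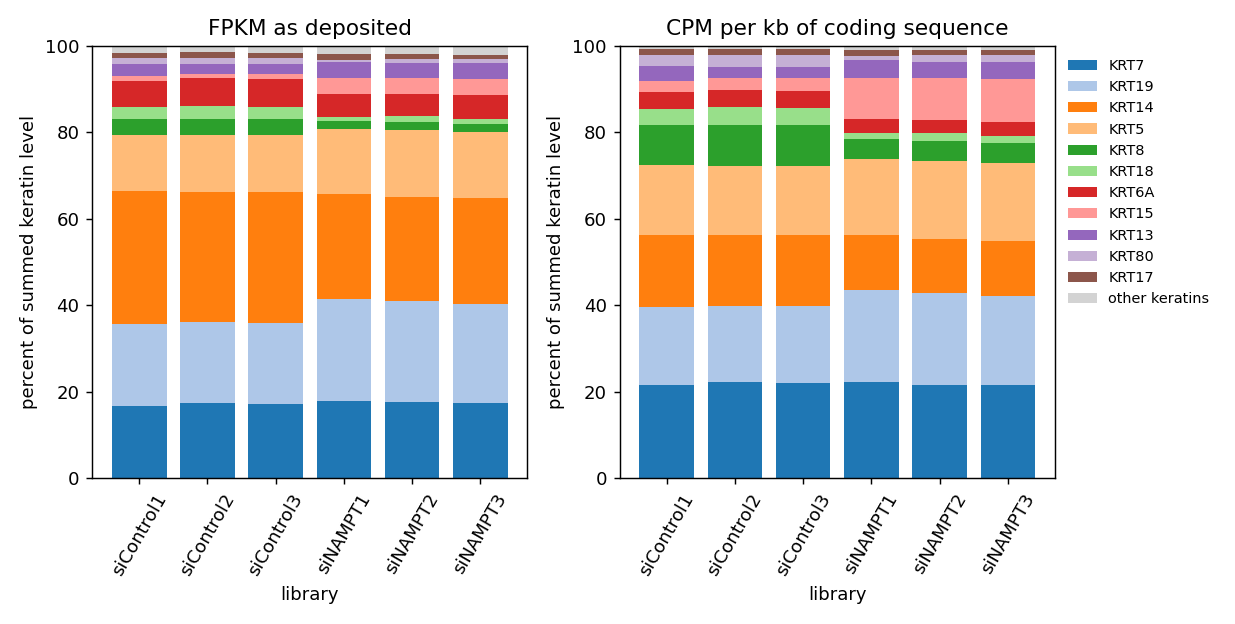
Percent of the summed keratin level held by each leading keratin in each of the 6 libraries, as stacked bars, by deposited FPKM (left) and by CPM per kilobase of coding sequence (right). By FPKM the KRT14 part is 30.3% of the mean sum in siControl and 24.3% in siNAMPT, and the KRT15 part 1.04% and 3.67%.

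The genes lie in clusters, type I on chromosome 17 (28 members) and type II with KRT18 on chromosome 12 (27 members). On chromosome 17, KRT13, KRT15, KRT19 and KRT9 are consecutive members, with 8037, 1087 and 37532 bases between their annotated ends, and all 4 rose. The next member, KRT14, begins 10220 bases after KRT9 and fell, and KRT16 and KRT17 after it were not called. On chromosome 12, KRT8 and KRT18 at 1 end of the cluster fell, as did KRT80 at the other end. Between them KRT81 and KRT6A fell and KRT5 and KRT4 rose. The order was examined after the calls were known and was given no test.

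**Figure D5:**
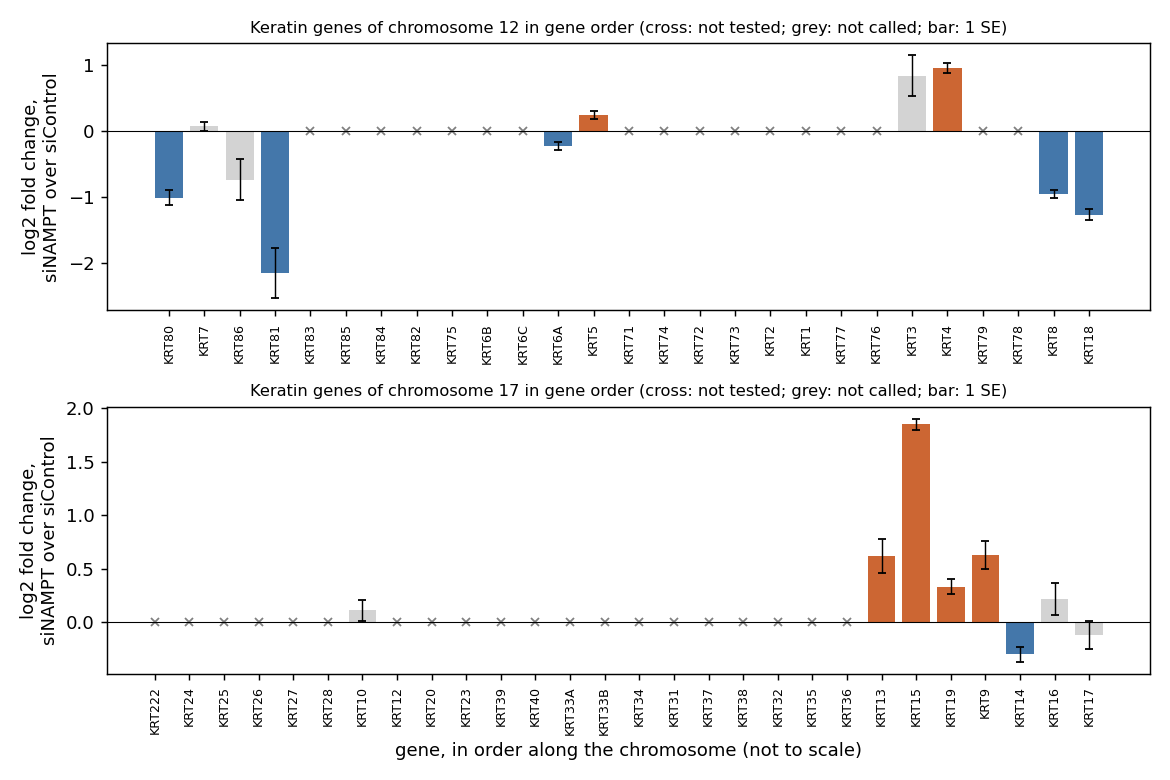
Log2 fold change of the tested keratins in their order along chromosomes 12 and 17, with bars of 1 SE, genes not called in grey and untested members as crosses. On chromosome 17 the neighbours KRT13, KRT15, KRT19 and KRT9 are all above 0 and KRT14, next to them, is below.

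Start regions of 6 tested members were found in the RefSeq promoter table (GRCh38.p14), those of KRT3, KRT4, KRT5, KRT8, KRT9 and KRT10. The 100 bases before the RefSeq start are shown for 2 keratins that rose by different amounts, KRT4 and KRT9, for KRT5, which rose least, and for KRT10, which was not called. Capitals mark TATAA, searched on both strands in the 250 bases before the start.
KRT4 (chr12:52814117-52814216, minus strand): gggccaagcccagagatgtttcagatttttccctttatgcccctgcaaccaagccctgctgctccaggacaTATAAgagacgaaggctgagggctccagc
KRT9 (chr17:41572060-41572159, minus strand): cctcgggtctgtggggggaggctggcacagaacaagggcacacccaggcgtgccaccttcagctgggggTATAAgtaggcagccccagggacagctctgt
KRT5 (chr12:52520395-52520494, minus strand): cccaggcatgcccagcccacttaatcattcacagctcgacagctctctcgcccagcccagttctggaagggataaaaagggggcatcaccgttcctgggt
KRT10 (chr17:40822615-40822714, minus strand): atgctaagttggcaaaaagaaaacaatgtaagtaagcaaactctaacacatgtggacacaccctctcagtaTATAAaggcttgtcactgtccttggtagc
TATAA begins at position -29 in KRT4 and KRT10, -30 in KRT3 and -31 in KRT9, counted from the start, and was not found for KRT5 or KRT8. It was thus in 4 of these 6 and in 18.9% of 35116 promoters. The RefSeq start of KRT8 lies 23373 bases from that of its GENCODE main transcript. The word TGANTCA, bound by AP-1 factors, was in none of the 6 and in 6.57% of promoters, and GGGCGG, bound by Sp factors, was in that of KRT9 only and in 42.6% of promoters. The RefSeq start of KRT4 is 435 bases, and that of KRT5 293 bases, from the start of the GENCODE main transcript.

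Regulators of keratin genes were measured as a list of 28 transcription factors, of which 24 were tested. In siNAMPT 10 rose, 4 fell and 10 were not called, with a median log2 fold change of 0.19. Called factors were 58.3% of those tested, beside 42.7% of all tested genes (20.8% higher and 21.9% lower). The largest rises were those of BCL11B (1.52, adjusted p = 6.84e-04), a zinc finger factor of epidermal development at a low level of 0.121 FPKM in siControl, and ELF3 (1.24, adjusted p = 4.51e-05), an epithelial ETS factor that went from 13.7 ± 0.609 to 32.8 ± 2.90 FPKM (SD, n = 3 each). The largest falls were those of KLF4 (-0.93, adjusted p = 2.73e-04) and GRHL3 (-0.83, adjusted p = 0.0272), both factors of epidermal barrier formation. TP63, the master regulator of the basal layer, rose by 0.53 (adjusted p = 0.0025), from 5.37 to 7.87 FPKM.

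Of 15 keratin-anchoring plaque proteins and cytolinkers, all tested, 4 rose, 3 fell and 8 were not called, with a median of -0.03. The called share of 46.7% is near the 42.7% of all tested genes. PKP1 (0.61, adjusted p = 2.76e-04) and DSP (0.46, adjusted p = 8.42e-04), which tie keratins to desmosomes, rose most. PNN fell by 0.49 (adjusted p = 0.0061) and MACF1, a linker of actin and microtubules, fell by 0.40 (adjusted p = 0.0099). None of the 15 changed by 2-fold or more.

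Other intermediate filament proteins gave 8 tested genes of 15, of which 2 rose, 3 fell and 3 were not called, with a median of 0.13. Called genes were 62.5% of those tested, beside 42.7% of all tested genes (20.8% higher and 21.9% lower). BFSP1, a lens filament protein, rose by 1.21 (adjusted p = 0.0013) and nestin (NES) by 0.63 (adjusted p = 0.0114), both from under 1 FPKM. NEFL, a neurofilament gene at a low level of 0.357 FPKM in siControl, fell by 0.78 (adjusted p = 0.0224). Lamin B1 (LMNB1) fell by 0.33 (adjusted p = 0.0096). The 5 calls became 3 without the first or second siControl library or the third siNAMPT library. VIM was not called, with a log2 fold change of 0.21 (adjusted p = 0.3868).

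Genes of the cornified envelope and late differentiation, which act above the layers that KRT5 and KRT15 mark, gave 11 tested genes of 29 matched. Of these 5 rose, 2 fell and 4 were not called, with a median of 0.32. Called genes were 63.6% of those tested, beside 42.7% of all tested genes (20.8% higher and 21.9% lower). Involucrin (IVL), an early envelope protein, rose by 1.53 (adjusted p = 8.49e-05) from 5.62 ± 0.402 to 16.4 ± 1.97 FPKM (SD, n = 3 each). ABCA12, a lipid transporter at a low level of 0.614 FPKM in siControl, rose by 0.47 (adjusted p = 0.0162). ALOXE3, a lipoxygenase of the barrier at only 0.327 FPKM in siControl, fell by 1.11 (adjusted p = 0.0149). Filaggrin (FLG), at 1.69 FPKM in siControl, fell by 0.71 (adjusted p = 0.0032). The 7 calls became 4 without the second siControl library.

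Of the 14 markers of corneal epithelium, 12 were tested, 7 rose and 2 fell. The called share was 75.0%, beside 42.7% of all tested genes (20.8% higher and 21.9% lower). Leaving out the keratins among these markers, 6 of 9 tested rose and 1, EPCAM, fell (-0.21, adjusted p = 0.0236). Of the 18 corneal endothelium markers, 10 were tested, 3 rose and 1, CDH2, fell (-0.92, adjusted p = 7.92e-05). The 10 keratocyte and fibroblast markers summed to between 1.21 and 1.39 FPKM in siControl and between 2.01 and 2.16 FPKM in siNAMPT, with 2 of 3 tested higher. The 8 vascular endothelium markers summed to between 0.853 and 1.01 FPKM in siControl and between 1.2 and 1.36 FPKM in siNAMPT, with 1 of 2 tested higher. Both sums were low and did not overlap between groups. The part of a shift in cell makeup in the keratin changes was not tested.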

How the data were processed

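RNA of 6 libraries, 3 siControl and 3 siNAMPT, was sequenced in paired-end mode as mRNA libraries, per the labels' protocols, and groups and replicate numbers come from the sample titles. The authors deposited whole-number counts per gene and FPKM values, per the file headers. FPKM equals the count per gene length and library total, as tested on the values. Aligner, counter, strand and multiple-match handling: not given in the sources used here. Builds named in the submitters' processing notes are GRCh38 and mm10. Of the table's gene IDs, 98.5% are in GENCODE release 29, and 94.7% of those have the same position, so coordinates are given as GRCh38.

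The deposited counts went into edgeR 4.0.16 under R 4.3.3 (filterByExpr with a minimum count of 10, TMM, quasi-likelihood, two-sided, no other term), with Benjamini-Hochberg adjustment over 15213 genes at 0.05, and the script was tested on simulated data. The SE is the log2 fold change divided by the root of F. TMM factors were 0.988 to 1.02. No replicate pair was within sampling noise, with 11.6 to 16.7 as chi-square per gene. Alternatives were DESeq2 1.42.0, RLE scaling, limma 3.58.1 on log2(FPKM + 1) and log2(FPKM + 0.1), no filter, a replicate block, other level scales and leaving out each library. Sequences were compared with Biopython 1.88, and tables and plots were made in Python 3.11.15 with matplotlib 3.10.9, pandas 2.3.3 and numpy 2.4.6. Named are NAMPT, all members with at least 1 FPKM in either group and all tested ones, up to 2 rising and 2 falling genes with the largest fold change per accompanying list, and marker genes. TP63, VIM and CDH2 are named from the lists as markers or by their level. Some marker genes and the summed levels of their lists are not reported here. The members and lists were chosen with earlier results of these data known.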

Additional observations from a re-analysis of the deposited data

How the results depend on the processing

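The count of 12 called keratins, 6 higher and 6 lower, was 12 with DESeq2, RLE scaling and the replicate block. It was 13 with no filter, where KRT1 was added through its siNAMPT counts alone. With limma it was 11 to 13, as it was when 1 library was left out (11 to 13). The labels do not say that same-numbered libraries are pairs, so the numbers were not taken as pairs. Deviations of same-numbered libraries correlated at 0.089, 0 and 0.071, and those of differently numbered ones at -0.108 to 0.045. The block gave 6336 called genes where the fit without it gave 6500. Over 226 values for the 18 tested genes, 219 kept direction and side of the threshold, 5 lost the call (KRT6A and KRT13, given above), 1 gained it (KRT3) and 1 changed sign, KRT7 at -0.0017 (adjusted p = 0.9812) without the first siNAMPT library (up to 0.11 without another). The summed keratin level, 1.03-fold in FPKM, was 0.994 to 1.06 with a library left out and 1.12 without KRT14, and the type I sum, 1.04-fold in FPKM, was 1.17 in CPM and 1.17 per kilobase of coding sequence, since FPKM lengths no longer weigh the members. Of other intermediate filament genes, edgeR called 5 of 8 tested, limma on log2(FPKM + 1) and log2(FPKM + 0.1) 2 of 3, and limma with no filter 5 of 11. Of cornified envelope genes, edgeR called 7 of 11, limma 5 of 7, and limma with no filter 4 of 25. Low counts limit what can be said of the 37 untested members.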

Other observations

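Keratin pseudogenes and hair keratin-associated proteins lie outside the rule for members and are given as values. Of 147 keratin pseudogenes, 74 had a count and 6 were tested. Of these 6, 3 copies of KRT8 fell, as KRT8 itself did, and 3 pseudogenes were not called. Among all tested genes 42.7% were called, 20.8% higher and 21.9% lower. KRT8P3 had 943, 932 and 874 counts in siControl and 599, 440 and 567 in siNAMPT (log2 fold change -0.79, adjusted p = 4.62e-04, quasi-likelihood test in edgeR, Benjamini-Hochberg adjusted). KRT8P45 fell by 0.98 (adjusted p = 0.0023) and KRT8P10 by 0.78 (adjusted p = 0.0176), while another copy, KRT8P12, had 90, 88 and 89 counts against 99, 80 and 114 (log2 fold change 0.12, adjusted p = 0.4982). KRT16P4 and KRT8P33 were not called. Reads of KRT8 that were assigned to its copies, or the reverse, cannot be told apart in these counts. Of 94 genes for keratin-associated proteins of hair, 6 had a count and none was tested.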
